A study of Rattus norvegicus with 30 samples.

Results

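Matrix metalloproteinases (MMPs) and the proteins that hold them in check were followed in the kidney of normal rats given a high-salt diet. The 9 genes are the gelatinases Mmp2 and Mmp9, matrilysin (Mmp7), macrophage elastase (Mmp12), the membrane-bound Mmp14, the tissue inhibitors of metalloproteinases Timp1, Timp2 and Timp3, and the secreted protease Adamts1. They were chosen by name, and all 9 were found by symbol among the 32545 genes of the deposited table, each with an entry, which may be 0, for all 30 libraries. Mmp7 was at 0 in 16 of the 30 libraries and passed the low-count filter of no comparison.

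Male Sprague-Dawley rats ate a low-salt (LS) diet of 0.4% NaCl, or were moved from it to a high-salt (HS) diet of 4.0% NaCl. Cortex (Cx) and outer medulla (OM) of the right kidney, both cut from the kidneys of 5 rats in a diet group, were sampled on LS, after 14 d on HS (HS14) and after 21 d on HS (HS21), with 5 poly(A) RNA libraries in each of the 6 groups. The labels give the age of none of these rats. Replicates are numbered 1 to 5 (LS), 6 to 10 (HS14) and 11 to 15 (HS21) in both tissues.

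MMPs are zinc proteases that cut collagens, laminins and other proteins of the extracellular matrix, and most are secreted as inactive precursors. TIMPs bind to the active site of MMPs and block it, and some TIMPs do so with ADAM and ADAMTS proteases. In the kidney the balance between both families is known for its part in the turnover of basement membranes and interstitial matrix, and TIMP3 stays bound to the matrix while the other TIMPs diffuse.

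The libraries held from 13953714 to 17048749 counts in Cx LS, from 15379007 to 21842843 in Cx HS14 and from 14641135 to 15627211 in Cx HS21. In the OM they held from 12748841 to 14838776 counts on LS, from 5408126 to 16557589 at HS14 and from 12899490 to 15810724 at HS21. Replicate 10 of OM HS14 was the shallowest, and 9 counts of Timp1 were the lowest of any library for that gene. Levels are given as CPM, the counts in 1e6 counts of a library, after scaling between libraries with TMM (trimmed mean of M values).

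The tissue labels were checked against genes of single nephron segments. Slc12a3, the cotransporter of the distal convoluted tubule, ranged from 9.93 to 11.39 log2 CPM in Cx libraries and from 3.13 to 8.47 in those of the OM. Slc5a2, the glucose transporter of the early proximal tubule, ranged from 8.85 to 9.69 log2 CPM and from 0.57 to 5.99. Slc34a1, the phosphate transporter of the proximal tubule, overlapped slightly, with 12.03 to 12.74 log2 CPM in the Cx and 6.99 to 12.10 in the OM. Umod and Slc12a1, both made in the thick ascending limb, were higher in every OM library, at 12.48 to 13.72 and 11.18 to 13.22 log2 CPM against 9.75 to 11.11 and 8.16 to 9.18 in the Cx.

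A few libraries stood apart from their groups. Replicate 2 of OM LS had the highest Slc12a3, Slc5a2 and Slc34a1 of all OM libraries, and its 10 proximal tubule markers summed to 15518 CPM, against 3681, 6541, 5725 and 799 CPM in replicates 1, 3, 4 and 5. Its 6 thick ascending limb markers summed to 10435 CPM, the lowest of the OM. Replicate 5 of OM LS stood at the other end, with the lowest proximal tubule sum (799 CPM) and the highest thick ascending limb sum (22631 CPM). Replicate 10 of Cx HS14 had a proximal tubule sum of 17192 CPM against 22070.1 to 23120 CPM in replicates 6 to 9, and a thick ascending limb sum of 2960.3 CPM against 1693 to 1872. Replicate 10 of OM HS14, besides its low depth, differed from replicates 6 to 9 by a chi-square per gene (about 1 where only counting noise differs) of at least 157, against 25.4 to 80.1 among those 4. Where a call of a member changes without 1 of these libraries, both values are given.

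Per kilobase of gene length, Timp3 was by far the most abundant of the 9 genes. It averaged 542 ± 24.8 CPM per kb in Cx LS and 377 ± 85.6 in OM LS (SD, n = 5), and in all 6 groups its lowest library lay above the highest of every other member. Timp2 came next in every group, at 35.1 ± 3.92 CPM per kb in Cx LS, where it did not overlap its neighbours, and at 30.3 ± 9.81 in OM LS, where it overlapped Mmp14. In Cx LS, Adamts1 (22.1 ± 6.31 CPM per kb) and Mmp14 (15.7 ± 2.39) overlapped each other and lay above Mmp2 (6.85 ± 1.23), Timp1 (6.08 ± 1.29) and Mmp9 (4.49 ± 2.30), which overlapped in turn. Mmp12 (1.08 ± 0.362 CPM per kb) and Mmp7 (0.0231 ± 0.0516) were lowest there, each apart from its neighbours.

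The order was different in the OM. On LS, Mmp14 followed Timp2 with 23.1 ± 7.49 CPM per kb and overlapped both Timp2 and Mmp2 (9.04 ± 3.83). Adamts1 (9.0 ± 1.65 CPM per kb) and Timp1 (8.09 ± 3.14) followed and overlapped Mmp2. Mmp12 (0.335 ± 0.127 CPM per kb), Mmp9 (0.304 ± 0.634) and Mmp7 (0.0114 ± 0.0255) were the least abundant, and Mmp9 overlapped both others through its wide spread. At HS21, Timp1 came after Mmp14 in both tissues, in the Cx at 11.9 ± 3.59 CPM per kb, overlapping Mmp14 and Mmp9, and in the OM at 12.2 ± 2.16, overlapping Mmp2.

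**Figure D1:**
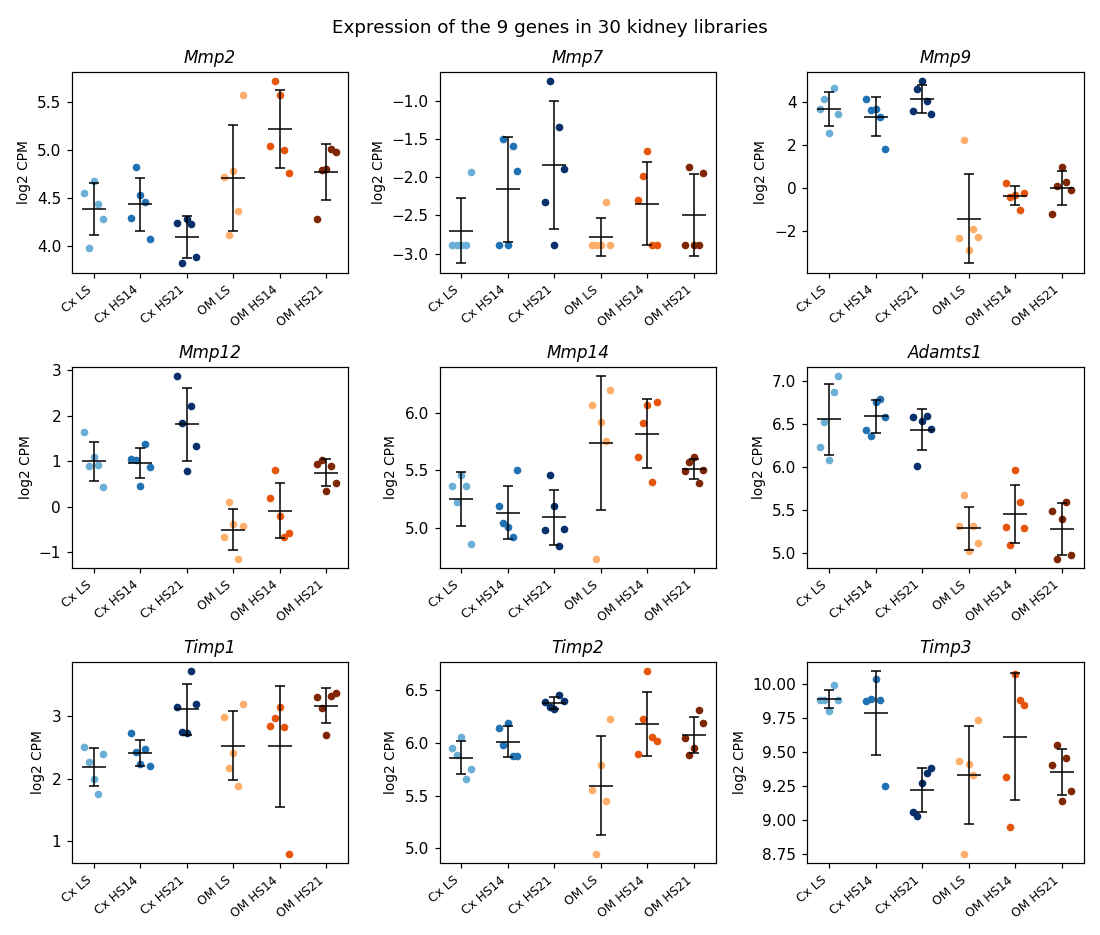
Expression of the 9 genes in log2 CPM (vertical axes, each with its own range), in the Cx and OM on LS, HS14 and HS21. Each point is 1 library, horizontal marks are means and bars are SD (n = 5); the 5 Cx HS21 libraries of Timp3 lie at 521 to 666 CPM, below the 894 to 1015 CPM of Cx LS.

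Changes were tested over all genes with the quasi-likelihood F-test of edgeR and adjusted over all genes tested (Benjamini-Hochberg). A call, raised or lowered, needed an adjusted p under 0.05. For single genes, mean log2 CPM was set against all regroupings of the libraries in an exact permutation test (two-sided), whose smallest possible p for 5 against 5 libraries is 0.00794. All p-values measure the spread between the rats or tissue samples sequenced here. The comparisons of HS14 and of HS21 with LS share the LS libraries and are not independent of each other.

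In the Cx at HS21, the inhibitors moved and the proteases did not pass the test: Timp1 and Timp2 rose and Timp3 fell. That is 2 of 8 tested members raised and 1 lowered, where 18.9% of the 14299 genes tested were raised and 20.5% lowered, so with TMM the members' share was close to that of all genes. Total-count scaling gave 4401 genes raised and 1653 lowered in place of 2702 and 2936, and added Mmp12 to the raised members. The 2 raised inhibitors had every HS21 library above every LS library, as had 12.04% of all genes, and Timp3 had every HS21 library below, as had 14.6%. DESeq2 called 4 members, Mmp12 in addition, and 5 had an unadjusted p under 0.05.

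In the other comparisons with LS, edgeR called none of the 9 genes. In the Cx at HS14, 0 of 8 tested members were raised or lowered, as against 1.14% and 1.18% of all genes, with 0 at an unadjusted p under 0.05 and 0 by DESeq2. Without Cx HS14 replicate 10, 274 genes were raised and 197 lowered there, in place of 162 and 168. For the OM at HS14, it was 0 of 6 against 0.00694% of all genes, with 1 member (Timp2) at an unadjusted p under 0.05 and 0 by DESeq2. For the OM at HS21, it was 0 of 8 against 0.639% of all genes raised and 0.131% lowered, with 2 members (Mmp12 and Timp1) at an unadjusted p under 0.05 and 1 (Mmp12) called by DESeq2. With so few genes called at all in these 3 comparisons, no call among the members is what the share of all genes would give.

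The step from HS14 to HS21 and the difference between the tissues gave further calls. Between Cx HS14 and Cx HS21, 2 of 8 members were raised and 1 lowered, beside 6.5% and 9.69% of all genes. Total-count scaling gave 2084 genes raised and 644 lowered in place of 935 and 1395, and added Mmp12 to the raised members. Without Cx HS14 replicate 10, 1476 genes were raised and 2048 lowered, and Mmp2 was added to the lowered members. Between OM HS14 and OM HS21, edgeR called 0 of 8 members and 0.0% of all genes, with 3 members at an unadjusted p under 0.05 and 0 called by DESeq2. On LS, 0 of 8 members were higher in the OM than in the Cx and 4 were lower, beside 21.3% and 19.5% of all genes. Total-count scaling changed this to 1 higher (Mmp14) and 3 lower, without Timp3, beside 5546 genes raised and 1842 lowered in place of 3051 and 2794. With TMM, counting groups that did not overlap gave 0 above (13.3% of all genes) and 4 below (15.7%).

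**Figure D2:**
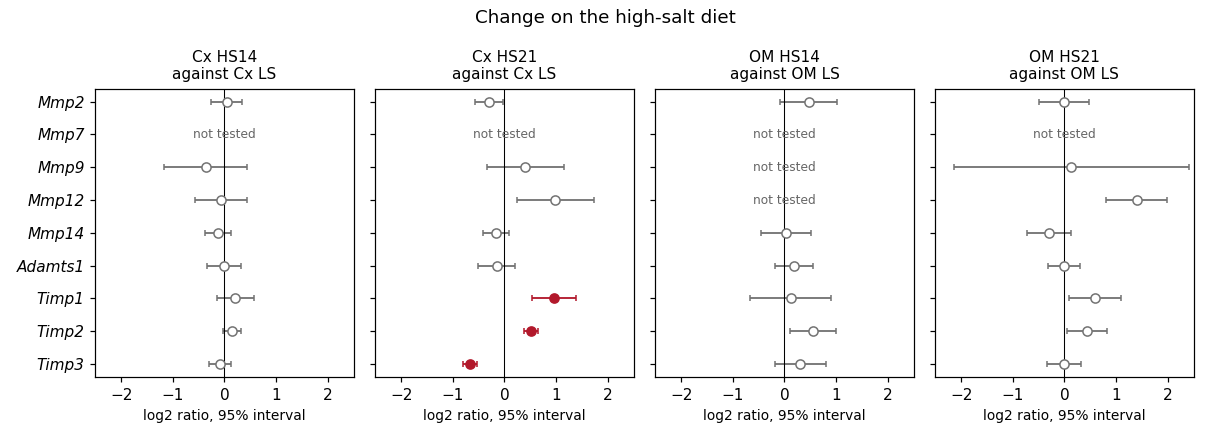
Log2 ratio of HS to LS for each gene in the 4 comparisons with LS (n = 5 and 5 libraries). Bars are 95% intervals from the SE and the normal distribution, narrower than the F-test would give. Filled red points passed an adjusted p under 0.05 by edgeR: Timp1 (0.96), Timp2 (0.51) and Timp3 (−0.67) in the Cx at HS21; genes marked as not tested were removed by the low-count filter.

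Mmp12 encodes macrophage elastase, a protease made mainly by macrophages that cuts elastin and other matrix proteins. In the Cx it was at 2.98, 1.72, 2.0, 1.76 and 1.22 CPM on LS, at 1.92, 1.89, 1.24, 2.48 and 1.69 CPM at HS14 and at 7.18, 3.45, 1.59, 4.51 and 2.38 CPM at HS21. Replicates 11, 12 and 14 of HS21 were above all LS and HS14 libraries, and replicates 13 and 15 were within their range. The mean was 1.94 ± 0.649 CPM on LS and 3.82 ± 2.18 at HS21, a log2 ratio of 0.98 ± 0.38 (SE) that missed the call (edgeR, adjusted p = 0.0611; exact permutation p = 0.0794). It was called by DESeq2 (0.99, adjusted p = 0.0371), with total-count scaling (1.12, adjusted p = 0.0364), and by edgeR without Cx LS replicate 1 (1.19, adjusted p = 0.0421) or without Cx HS21 replicate 13 (1.18, adjusted p = 0.0174) or 15 (1.13, adjusted p = 0.0439). The other 7 of the 10 fits with a library left out did not call it, and over all 10 the log2 ratio ran from 0.64 (without HS21 replicate 11) to 1.19 and the adjusted p from 0.0174 to 0.162. Against HS14 the log2 ratio at HS21 was 1.05 ± 0.37 (adjusted p = 0.0714), called by DESeq2 (1.05, adjusted p = 0.0324), with total-count scaling (1.17, adjusted p = 0.0499) and without HS21 replicate 13 (1.24, adjusted p = 0.0234). It was not called in the other 9 of 10 such fits, in which the log2 ratio was as low as 0.69 and the adjusted p as high as 0.161.

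In the OM, Mmp12 was scarcer on LS, and each HS21 library was above each LS library. It was at 0.492, 0.94, 0.636, 0.318 and 0.609 CPM on LS, at 1.02, 1.61, 0.729, 0.499 and 0.536 CPM at HS14 and at 1.80, 1.89, 1.13, 1.74 and 1.30 CPM at HS21. HS14 overlapped both other groups, and the counts behind these values were few, from 5 to 11 on LS and from 18 to 31 at HS21. Between OM LS and OM HS14, Mmp12 did not pass the low-count filter and was not tested. Between OM LS and OM HS21 it passed through the HS21 libraries. The values of that comparison thus describe a gene kept by the group where it was high. Mmp12 was the only member without overlap between OM LS and OM HS21, a pattern 2.44% of all genes showed in the same direction (exact permutation p = 0.00794). The log2 ratio was 1.40 ± 0.30, a 2.65-fold level with a 95% interval of 1.77 to 3.95, with an adjusted p of 0.0671 by edgeR. DESeq2 called it (1.43, adjusted p = 0.00209), as did edgeR without OM LS replicate 2 (1.60, adjusted p = 0.0492), the only call in 10 such fits, over which the log2 ratio was as low as 1.25 and the adjusted p as high as 0.187. On LS, the OM level was lower than that of the Cx in every library, by a log2 ratio of −1.71 ± 0.32 (adjusted p = 0.00194).

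Mmp9, gelatinase B, degrades collagen IV and gelatin and was the member that differed most between the tissues. On LS it was at 12.6, 17.2, 5.62, 24.8 and 10.5 CPM in the Cx and at 0.0615, 4.53, 0, 0.127 and 0.0677 CPM in the OM. All OM libraries lay below all Cx libraries, and replicate 2, the OM library with the high proximal and distal tubule markers, held 53 of the 57 counts of its group. The log2 ratio of OM to Cx was −4.02 ± 1.07 (adjusted p = 0.0123), and −7.62 ± 0.66 (adjusted p = 8.55e-06) without that library. Replicates 1, 3, 4 and 5 of OM LS held 1, 0, 2 and 1 counts, too few for the size of the second ratio to be read.

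The diet groups of Mmp9 overlapped in the Cx. It ranged from 3.31 to 17.6 CPM at HS14 and from 10.7 to 31.1 CPM at HS21, both overlapping LS, with log2 ratios of −0.36 ± 0.41 (adjusted p = 0.718) and 0.40 ± 0.38 (adjusted p = 0.426). In the OM, Mmp9 was at 1.02, 0.597, 0.668, 0.357 and 0.714 CPM at HS14 and at 0.29, 0.91, 1.83, 1.08 and 0.806 CPM at HS21. All 10 of these libraries were above 4 of the 5 LS libraries and below LS replicate 2. The log2 ratio at HS21 was accordingly 0.13 ± 1.16 (adjusted p = 0.99) with that library and 3.77 ± 0.70 (adjusted p = 0.0515) without it, not called in either case. The LS counts left without replicate 2 are too few for the size of this HS21 ratio, or of the tissue difference, to be read. The tissue difference in this ratio was −0.22 ± 1.17 (adjusted p = 0.947), and 3.38 ± 0.95 (adjusted p = 0.0365) without OM LS replicate 2, the only call in 20 fits with a library left out. With a replicate block this difference turned positive and was not called.

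Mmp2, gelatinase A, and Mmp14, the membrane protease that activates it, showed no called change on HS. Mmp2 averaged 21.0 ± 3.77 CPM in Cx LS, 21.8 ± 4.27 at HS14 and 17.1 ± 2.51 at HS21, with overlap between all groups. Its log2 ratio in the Cx at HS21 was −0.30 ± 0.14 (adjusted p = 0.0997), and −0.39 (adjusted p = 0.0301) without Cx LS replicate 2, the lowest LS library with 15.7 CPM, and was not called in the other 9 of 10 such fits (adjusted p up to 0.224). Against HS14 it was −0.35 ± 0.14 (adjusted p = 0.114), and −0.44 ± 0.13 (adjusted p = 0.0385) without Cx HS14 replicate 10, again the only call in 10 (adjusted p up to 0.246). In the OM, Mmp2 averaged 27.8 ± 11.8 CPM on LS, 38.3 ± 11 at HS14 and 27.6 ± 5.08 at HS21. The spread on LS was wide, from 17.3 CPM in replicate 2 to 47.5 CPM in replicate 5, and covered most of the other groups. The log2 ratio at HS14 was 0.47 ± 0.28 (adjusted p = 0.994), 0.33 ± 0.27 without LS replicate 2 (adjusted p = 1.0) and 0.74 ± 0.23 without LS replicate 5 (adjusted p = 0.382).

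Mmp14 averaged 38.4 ± 5.82, 35.3 ± 5.92 and 34.3 ± 6.03 CPM in the Cx on LS, at HS14 and at HS21, and 56.3 ± 18.2, 57.3 ± 11.4 and 45.6 ± 2.79 CPM in the OM. The OM LS libraries held 67.2, 26.3, 60.4, 54.1 and 73.4 CPM, so that replicate 2 alone was not above the Cx LS range of 28.9 to 43.8 CPM. The difference between the tissues on LS was a log2 ratio of 0.55 ± 0.23 (adjusted p = 0.0855), and 0.71 ± 0.12 (adjusted p = 0.000873) without OM LS replicate 2, the only call in 10 fits with a library left out. Total-count scaling also gave a call (0.82, adjusted p = 0.0304). At HS21 the OM log2 ratio was −0.30 ± 0.22 (adjusted p = 0.722), and −0.48 ± 0.09 (adjusted p = 0.0515) without that library.

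Mmp7, or matrilysin, is a small epithelial protease. It was found in 2 counts over the 5 Cx LS libraries (2 in replicate 5, 0 in the others), in 9 counts at HS14 and in 14 at HS21, where single libraries held 1, 7, 0, 4 and 2. In the OM the sums were 1, 6 and 4 counts on LS, at HS14 and at HS21. These numbers are too few for a fold change: 3 counts in a whole group of Cx LS would be 0.0401 CPM. The exact permutation p against LS was 0.167 at HS14 and 0.0873 at HS21 for Mmp7 in the Cx, and 0.167 and 0.444 in OM libraries.

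Timp1 encodes an inducible inhibitor of most secreted MMPs, and it rose in the Cx at HS21. It was at 5.58, 4.70, 3.85, 3.23 and 5.14 CPM on LS, at 6.51, 5.24, 4.54, 5.45 and 4.48 CPM at HS14 and at 8.77, 6.57, 6.56, 13.1 and 8.97 CPM at HS21. All HS21 libraries lay above all LS and HS14 libraries, replicate 14 highest, while HS14 overlapped LS. The mean rose from 4.50 ± 0.953 to 8.79 ± 2.66 CPM (n = 5), a 1.95-fold level with a 95% interval of 1.44 to 2.62. The log2 ratio was 0.96 ± 0.22 (edgeR, adjusted p = 0.00494; exact permutation p = 0.00794). At HS14 the log2 ratio was 0.21 ± 0.18 (adjusted p = 0.609).

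In the Cx, every HS21 library of Timp1 lay above every HS14 library, and the share of all genes with that pattern was not counted. Between HS14 and HS21, Timp1 in the Cx rose by a log2 ratio of 0.75 ± 0.20 (adjusted p = 0.0307; exact permutation p = 0.00794). This call was lost without any 1 of 6 libraries: Cx HS14 replicates 7 (0.74, adjusted p = 0.0655), 8 (0.70, adjusted p = 0.0784) and 9 (0.76, adjusted p = 0.0659), and Cx HS21 replicates 11 (0.75, adjusted p = 0.0544), 14 (0.56, adjusted p = 0.0643) and 15 (0.74, adjusted p = 0.0616). Timp1 shares its locus with Syn1 on the opposite strand, and the libraries do not keep the strand. Syn1 was counted at 0.135 to 1.96 CPM, so the values of Timp1 are uncertain by reads that cannot be assigned between the pair.

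In the OM, Timp1 was at 7.81, 4.36, 5.22, 3.56 and 9.0 CPM on LS, at 7.05, 7.76, 8.75, 6.99 and 1.61 CPM at HS14 and at 9.81, 8.61, 6.36, 9.88 and 10.3 CPM at HS21. The groups overlapped, and HS14 replicate 10, the shallow library, was lowest of all. The log2 ratio was 0.12 ± 0.40 at HS14 (adjusted p = 0.994), 0.35 ± 0.27 without replicate 10 (adjusted p = 0.708), and 0.59 ± 0.26 at HS21 (adjusted p = 0.432; exact permutation p = 0.0635). The HS21 value of Timp1 was 0.50 ± 0.27 without LS replicate 2 (adjusted p = 0.467) and 0.77 ± 0.25 without LS replicate 5 (adjusted p = 0.168). The difference between the HS21 changes of OM and Cx was −0.38 ± 0.35 (adjusted p = 0.633), so the call in the Cx alone does not show a difference between the tissues.

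Timp2 encodes an inhibitor that also takes part, with MMP14, in the activation of pro-MMP2, and it rose in the Cx at HS21 with a narrow spread. It was at 61.8, 59.2, 66.7, 50.4 and 53.5 CPM on LS, at 70.5, 63.1, 72.6, 58.9 and 58.8 CPM at HS14 and at 84.0, 80.8, 79.5, 88.1 and 84.5 CPM at HS21. All HS21 libraries were above all others of the Cx, and HS14 overlapped LS. The mean rose from 58.3 ± 6.51 to 83.4 ± 3.36 CPM, a 1.43-fold level (95% interval 1.29 to 1.58), with a log2 ratio of 0.51 ± 0.07 (adjusted p = 0.000314; exact permutation p = 0.00794). From HS14 to HS21 the log2 ratio was 0.37 ± 0.07 (adjusted p = 0.0102), and the share of all genes without overlap was not counted for that step. From LS to HS14 the log2 ratio was 0.14 ± 0.09 (adjusted p = 0.445).

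In the OM, Timp2 was at 46.9, 30.8, 55.3, 43.6 and 74.8 CPM on LS, at 59.5, 74.9, 102, 66.7 and 64.7 CPM at HS14 and at 66.2, 59.2, 61.9, 79.4 and 73.1 CPM at HS21. Every HS library was above 4 of the 5 LS libraries, and LS replicate 5 lay among them. The log2 ratio was 0.55 ± 0.23 at HS14 (adjusted p = 0.812; exact permutation p = 0.0476) and 0.44 ± 0.20 at HS21 (adjusted p = 0.458; exact permutation p = 0.0635). Without LS replicate 5 these were 0.73 ± 0.21 (adjusted p = 0.328) and 0.61 ± 0.16 (adjusted p = 0.101), and without LS replicate 2 they were 0.41 ± 0.20 (adjusted p = 1.0) and 0.30 ± 0.16 (adjusted p = 0.442). The HS21 changes of the tissues differed by −0.08 ± 0.22 (adjusted p = 0.893). Cep295nl lies within Timp2 on the same strand and was counted at 0 to 2.5 CPM.

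Timp3 encodes the matrix-bound inhibitor, and it fell in the Cx at HS21. It was at 943, 940.1, 894, 1015 and 943 CPM on LS, at 936, 946, 1046, 941 and 611 CPM at HS14 and at 535, 521, 617, 649 and 666 CPM at HS21. All HS21 libraries were below all LS libraries, and HS14 replicate 10 alone of its group stood at the HS21 level. The mean was 947 ± 43.4 CPM on LS and 598 ± 65.8 CPM at HS21, 0.63 of the LS level (95% interval 0.569 to 0.697). The log2 ratio was −0.67 ± 0.07 (edgeR, adjusted p = 7.64e-05; exact permutation p = 0.00794).

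The HS14 group of Timp3 turned on replicate 10, the Cx library with low proximal and high distal markers. With it the log2 ratio to LS was −0.09 ± 0.11 (adjusted p = 0.753), and without it 0.02 ± 0.05 (adjusted p = 0.898). From HS14 to HS21 the log2 ratio was −0.58 ± 0.13 (adjusted p = 0.0164; exact permutation p = 0.0317) with it and −0.70 ± 0.08 (adjusted p = 0.000573) without it, and the groups overlapped through that library only. Syn3 overlaps Timp3 on the opposite strand and was counted at 0.785 to 7.41 CPM, beside 431 to 1074 CPM of Timp3 over all 30 libraries.

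In the OM, Timp3 was at 692, 431, 679.7, 645 and 849 CPM on LS, at 634, 495, 1074, 944 and 919 CPM at HS14 and at 677, 748, 566, 700.2 and 590.4 CPM at HS21. The lowest of these was LS replicate 2, and the groups overlapped. The log2 ratio was 0.31 ± 0.25 at HS14 (adjusted p = 0.994) and −0.01 ± 0.17 at HS21 (adjusted p = 0.997). Timp3 was at 0.18 and −0.13 in these comparisons without LS replicate 2, and at 0.41 and 0.09 without LS replicate 5, with no call. On LS the OM was below the Cx in every library, by −0.53 ± 0.15 (adjusted p = 0.0174; exact permutation p = 0.00794), a call that total-count scaling removed (−0.27, adjusted p = 0.266).

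Whether Timp3 changed differently in the tissues was tested as the interaction of tissue and diet. At HS21 the log2 ratio was higher in the OM than in the Cx by 0.66 ± 0.19, with an adjusted p of 0.109 by edgeR. DESeq2 called it (0.67, adjusted p = 0.0224), and edgeR did so without OM LS replicate 2 (0.56 ± 0.14, adjusted p = 0.0242) or replicate 5 (0.76 ± 0.17, adjusted p = 0.0493). The other 18 of 20 fits with a library left out did not call it, with adjusted p-values up to 0.181. Timp3 was the 1 member with an unadjusted p under 0.05 in this interaction, edgeR called 0 of 8, and 0.665% of all genes were called. At HS14 edgeR called 0 of 8 members and 0.0% of all genes for a tissue difference, with 0 members at an unadjusted p under 0.05 and 0 by DESeq2. Over all genes at HS21, leaving out OM LS replicate 2 moved the count from 68 raised and 33 lowered to 729 and 546.

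Because Timp3 outweighed the other inhibitors, the sum of the TIMPs per length followed it. Timp3 made up 92.9 ± 0.99% of the summed CPM per kb of Timp1, Timp2 and Timp3 in Cx LS, 91.6 ± 1.31% at HS14 and 84.6 ± 1.35% at HS21, where the highest library (86.2%) was below the lowest on LS (91.8%). The sum itself was 583 ± 20.8 CPM per kb on LS, 559 ± 97.6 at HS14 and 404 ± 40.9 at HS21. The share in OM libraries was 90.9 ± 0.973%, 89.2 ± 3.52% and 87.5 ± 1.68%, and the sum 416 ± 97.4, 518 ± 142 and 429 ± 44.7 CPM per kb. These sums of transcripts were not tested.

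The sum over the 5 MMPs was not tested. It was 28.2 ± 3.96, 26.2 ± 1.58 and 27.9 ± 4.23 CPM per kb in the Cx on LS, at HS14 and at HS21, and 32.8 ± 10.1, 36.8 ± 6.84 and 28.9 ± 1.89 in the OM. The log2 ratio of the MMP to the TIMP sum was −4.38 ± 0.20 in Cx LS, −4.40 ± 0.30 at HS14 and −3.87 ± 0.34 at HS21, and the LS libraries (−4.70 to −4.24) overlapped those of HS21 (−4.30 to −3.46). In the OM this ratio was −3.69 ± 0.14, −3.79 ± 0.52 and −3.88 ± 0.21.

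Adamts1 encodes a secreted protease that cleaves aggrecan and versican, and it differed between the tissues and had no called change with the diet. On LS it was at 75.5, 92.3, 67.3, 118 and 133 CPM in the Cx and at 39.8, 51.3, 32.6, 39.7 and 34.5 CPM in the OM. All OM libraries were below all Cx libraries, with a log2 ratio of −1.30 ± 0.20 (adjusted p = 0.000576; exact permutation p = 0.00794). In the Cx it averaged 97.2 ± 27.8 CPM on LS, 97.0 ± 12.8 at HS14 and 87.6 ± 13.3 at HS21, and in the OM 39.6 ± 7.25, 44.8 ± 11.2 and 39.5 ± 8.09 CPM. The 4 log2 ratios to LS lay between −0.15 and 0.18, with adjusted p-values from 0.531 to 0.997. Their 95% intervals include changes in either direction, for example 0.706 to 1.15 of the LS level for Adamts1 in the Cx at HS21.

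The members that moved in the Cx at HS21 did so beside large shifts of cell type markers, and in bulk tissue fewer cells of a type and less RNA per cell cannot be told apart. All 10 proximal tubule markers were lowered (median log2 ratio −0.69, against 0.00 over all genes), among them Slc5a12 (−1.03 ± 0.13, adjusted p = 0.000124) and the endocytic receptor gene Lrp2 (−0.99 ± 0.08, adjusted p = 1.56e-05). Their summed level was 23228, 24068, 22821, 25188 and 24014 CPM on LS and 13925, 13522, 17816, 15100.1 and 14269 CPM at HS21, with Slc34a1 the most abundant and no marker at 0. At HS14 it was 22694, 23120, 22133, 22070.1 and 17192 CPM, lowest in replicate 10, the library in which Timp3 was lowest too. The HS21 sums lay below all LS sums, as did Timp3, and their part in the result for Timp3 was not tested.

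The same pair of values was read in the OM. The LS library with the highest sum, replicate 2 with 15518 CPM, had the lowest Timp3 of the group at 431 CPM, and replicate 5, with the lowest sum of 799 CPM, had the highest Timp3 at 849 CPM. The 10 markers summed to 6016, 5297, 1674, 3911 and 4894 CPM in OM HS14 and to 2074, 4855, 5188, 5998 and 5390.1 CPM in OM HS21, with Lrp2 the most abundant of the 10 in the OM. Replicate 8 of OM HS14, the lowest sum of its group, had the highest Timp3 at 1074 CPM. Replicate 11 of OM HS21, the lowest sum of its group, had the middle Timp3 value at 677 CPM. The part of these markers in the OM levels of Timp3 was not tested.

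**Figure D3:**
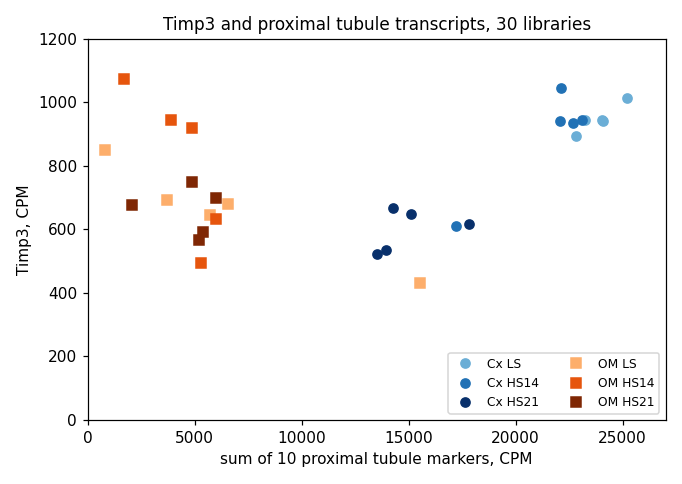
Timp3 (vertical axis, CPM) and the sum of 10 proximal tubule markers (horizontal axis, CPM) in each of the 30 libraries; circles are Cx and squares OM, and darker shades are longer on HS. Cx LS libraries lie at sums of 22821 to 25188 CPM and Cx HS21 libraries at 13522 to 17816 CPM, and the OM LS library at 15518 CPM has the lowest Timp3 (431 CPM).

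Markers of immune cells were raised in the Cx at HS21, where Timp1 rose. In the Cx at HS21, 11 of 12 tested macrophage markers were raised and 0 lowered (median log2 ratio 1.62), led by the lysozyme gene Lyz2 (2.72 ± 0.52, adjusted p = 0.00168) and the integrin gene Itgam (2.27 ± 0.35, adjusted p = 0.000483). The 14 macrophage markers summed to 334, 268, 393, 339 and 344 CPM on LS, to 637, 527, 765, 773 and 418 CPM at HS14 and to 1308, 773, 518, 1969 and 3409 CPM at HS21, with Lyz2 the most abundant. Replicate 13, lowest at HS21, also had the lowest Mmp12 (1.59 CPM) of that group. Its Timp1 (6.56 CPM) was level with that of replicate 12 (6.57 CPM), whose sum was 773 CPM. Replicate 15, with the highest sum, had 2.38 CPM of Mmp12 and 8.97 CPM of Timp1, and replicate 14, with the next highest, had 4.51 and 13.1 CPM. At HS14 all 5 sums lay above all LS sums. The part of these cells in the results for Mmp12 and Timp1 was not tested.

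The other immune lists were raised there too. All 8 tested T cell markers were raised in the Cx at HS21 (median 2.62), for example Cd3e (3.95 ± 0.59, adjusted p = 0.000408), and the 10 markers summed to 36.8, 35.0, 40.1, 32.0 and 25.9 CPM on LS and to 105, 81.4, 55.7, 149 and 190.3 CPM at HS21, with Cd4 the most abundant. All 3 tested neutrophil markers were raised (median 3.46), but the 10 genes summed to only 2.57 to 4.24 CPM on LS and 9.05 to 32.1 CPM at HS21, Csf3r being the most abundant, and Elane was at 0 in both groups and Mpo on LS. In the OM at HS21, 0.639% of all genes were raised. Of macrophage markers, 2 of 12 were raised there (Itgam 2.27 ± 0.39, Itgax 1.46 ± 0.14), with a median of 1.38, 10 at an unadjusted p under 0.05 and 9 called by DESeq2. The macrophage sums were 599, 176, 581, 421 and 876 CPM in OM LS and 1826, 871, 860.3, 1688 and 2167 CPM in OM HS21, beside the Mmp12 levels given above. Of neutrophil markers, 1 of 3 was raised (median 2.10), with 3 at an unadjusted p under 0.05 and 4 called by DESeq2. Of T cell markers, 1 of 9 was raised (median 1.97), with 9 at an unadjusted p under 0.05 and 8 called by DESeq2. The part of these 3 lists was not tested. At HS14 the OM had 0 of 12 macrophage, 0 of 2 neutrophil and 0 of 8 T cell markers called by edgeR, beside 0.00694% of all genes, with 5, 1 and 5 at an unadjusted p under 0.05 and 1, 3 and 0 called by DESeq2. At HS14 the Cx had 2 of 12 macrophage, 2 of 2 neutrophil and 3 of 7 T cell markers raised by edgeR, beside 1.14% of all genes, and 8, 4 and 5 called by DESeq2. Timp1 and Mmp12 were not called there. The DESeq2 counts of these lists include markers that the low-count filter of edgeR removed.

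Further marker lists were read in the Cx at HS21 beside the 18.9% of all genes raised and 20.5% lowered. Of podocyte markers, 6 of 7 were raised (median 0.38), of collecting duct markers 8 of 9 (0.73), and of injured tubule markers 8 of 11, with 1 lowered (0.81). Of thick ascending limb markers, 3 of 6 were raised and 1 lowered (0.47), of distal convoluted tubule markers 2 of 3 raised (0.70; Pvalb was at 0), and of endothelial markers 3 of 8 (0.22). Fibroblast and pericyte markers, from cells that make TIMPs and MMP2, showed 2 raised and 1 lowered of 11 (median −0.08), no more than all genes, and their 12 genes summed to 523 to 699 CPM on LS and 559 to 863 CPM at HS21, with Col3a1 and Dcn the most abundant. The part of these lists in the results was not tested.

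Fibroblast and pericyte markers were also read beside Timp2 and Mmp2 in the OM. On LS the 12 genes summed to 608, 667, 652, 463 and 843 CPM, at HS14 to 866, 1170.5, 1401, 1042 and 1022 CPM and at HS21 to 645, 859.7, 750.3, 1148 and 1257 CPM, with Col3a1 the most abundant and none at 0. All HS14 sums lay above all LS sums, and HS21 overlapped LS. At HS14, edgeR called 0 of 11 (median log2 ratio 0.78, against −0.02 over all genes), with 7 at an unadjusted p under 0.05 and 2 called by DESeq2, beside uncalled log2 ratios of 0.55 for Timp2 and 0.47 for Mmp2. Their part in these values was not tested.

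The genes around the members were read from lists by function, again in the Cx at HS21, where 18.9% of all genes were raised and 20.5% lowered. Of other MMP genes, 12 of the 17 found were too low to be tested, and 1 of 5 was raised, the membrane protease gene Mmp23 (0.41 ± 0.14, adjusted p = 0.034). Of other inhibitors, 1 of 3 was lowered, the broad protease inhibitor Pzp (−0.94 ± 0.06, adjusted p = 3.28e-06), from 424 ± 24.1 to 222 ± 15 CPM. Of other ADAMTS and ADAM proteases, 7 of 21 were raised and 3 lowered (median 0.09), with Adamts8 (1.08 ± 0.18, adjusted p = 0.000857) and Adamts16 (1.02 ± 0.22, adjusted p = 0.00329) the largest changes.

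Further lists held calls in both directions, for substrates and regulators at or below the shares of all genes. Of activators and receptors of matrix proteases, 7 of 17 were raised and 5 lowered (median 0.33). The largest changes were those of Lcn2, whose product binds MMP9 (2.91 ± 0.49, adjusted p = 0.000814), and of Cd44, a hyaluronan receptor that docks MMP9 on the cell surface (1.71 ± 0.29, adjusted p = 0.000799). Of matrix substrates, 4 of 28 were raised and 4 lowered (median 0.00), with Tnc (tenascin-C, 1.74 ± 0.61, adjusted p = 0.041) and Spp1 (osteopontin, 1.70 ± 0.33, adjusted p = 0.00195) the largest. Of regulators of matrix protease genes, 3 of 19 were raised and 2 lowered (median 0.01), with Il1b (1.93 ± 0.28, adjusted p = 0.000336) and Tgfb1 (0.87 ± 0.14, adjusted p = 0.000511) the largest. Lcn2 and Spp1 are also on the injured tubule list.

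Against LS, the same lists gave few calls elsewhere. In the Cx at HS14, Lcn2 (1.90 ± 0.32, adjusted p = 0.0152) and Il1b (1.30 ± 0.19, adjusted p = 0.00993) were the only raised genes of the 6 lists around the members, and none was lowered, beside the 0 calls among the members. Of all genes, 1.14% were raised and 1.18% lowered in that comparison, so few calls in these lists are near the share of all genes. Only Adam15 was called (0.48 ± 0.07, adjusted p = 0.028) in the OM at HS21, where 0.639% of all genes were raised and 0.131% lowered. From HS14 to HS21 in the Cx, 6.5% of all genes were raised and 9.69% lowered. Of ADAMTS and ADAM proteases 3 of 21 were raised and 1 lowered in that step, of activators and receptors 2 of 17 and 2, of substrates 1 of 28 and 2, of regulators 1 of 19 and 1, of other inhibitors 0 of 3 and 1, and of other MMPs 0 of 6 either way. The largest of these were Cd44 (1.31 ± 0.28, adjusted p = 0.014), Col4a4 (−0.98 ± 0.16, adjusted p = 0.00628), Adamts8 (0.92 ± 0.20, adjusted p = 0.0146) and Pzp (−0.86 ± 0.20, adjusted p = 0.0187).

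Between OM LS and Cx LS, where 4 members were lower in the OM, 21.3% of all genes were higher and 19.5% lower, and the lists had calls in both directions. Activators and receptors had 6 of 17 higher and 6 lower, led by the convertase gene Pcsk6 (6.22 ± 0.52, adjusted p = 1.23e-05). Substrates had 9 of 28 higher and 4 lower, led by Spp1 (3.28 ± 0.55, adjusted p = 0.00093), regulators had 5 of 19 and 2, led by Egr1 (3.45 ± 0.66, adjusted p = 0.00205), and ADAMTS and ADAM proteases had 3 of 21 and 3, led by Adamts17 (2.54 ± 0.39, adjusted p = 0.000569). Of 3 other inhibitors, 2 were called lower, Timp4 (−1.88 ± 0.32, adjusted p = 0.00102) and Pzp (−1.39 ± 0.50, adjusted p = 0.0489), and none higher. Of 5 other MMPs, Mmp15 was higher (1.90 ± 0.28, adjusted p = 0.000482) and Mmp17 lower (−1.37 ± 0.30, adjusted p = 0.00479).

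The genes whose log2 CPM ran most parallel to each inhibitor were taken from all protein-coding genes of at least 1 CPM, over the 15 libraries of a tissue, and the correlations are descriptions in which diet groups and library composition are shared. In the Cx, Timp3 was most like Sowahb (Pearson r 0.988), Ass1 (0.983, itself on the proximal tubule list) and Slc7a8 (0.977), of 13344 genes compared. Timp1 was most like RT1-CE10 (0.914), Slpi (0.914) and Lpxn (0.908), and Timp2 most like Atp8b2 (0.921), Rbm43 (0.918) and Acvrl1 (0.918). In the OM, over 13458 genes, Timp3 was most like Liph (0.946), Cyyr1 (0.933) and Hs3st3b1 (0.927), none of which was among its 3 in the Cx.

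The proteases had lower correlations in the Cx. Mmp12 was most like Gipc3 (0.877), Morc3 (0.851) and Gcsam (0.834) there, and in the OM most like Itgb2 (0.921), Actr3 (0.872) and Cd6 (0.871). Mmp9 was most like Trpv3 (0.834), Cdh5 (0.757) and Speg (0.749), Mmp2 like Gpatch2 (0.875), Etf1 (0.87) and Ube2l3 (0.852), Mmp14 like Fbn2 (0.894), Morn4 (0.869) and Fam107a (0.848), and Adamts1 like Tmem199 (0.799). In the OM, Timp1 was most like Gngt2 (0.955), Ccdc69 (0.954) and Arhgap4 (0.949), and Timp2 like Klhl13 (0.955), Stim1 (0.953) and Bgn (0.951). Mmp2 was most like Serpine2 (0.886), Ecm1 (0.862) and Islr (0.845) in the OM, Mmp14 like Kcnk16 (0.926), Fam83e (0.919) and Rrm1 (0.914), and Adamts1 like Diexf (0.876), Mff (0.852) and LOC100360977 (0.748).

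In the build of the counts, Rnor_6.0, the called inhibitors lie apart: Timp1 (ENSRNOG00000010208) at chrX:1364786-1369384, Timp2 (ENSRNOG00000003148) at chr10:107338465-107386072 and Timp3 (ENSRNOG00000004303) at chr7:23544215-23594133, each on the minus strand. Mmp12 (ENSRNOG00000030187, chr8:5606592-5616493) and Mmp7 (ENSRNOG00000010507, chr8:5893249-5901049) lie near each other on the plus strand. Mmp9 (ENSRNOG00000017539) lies at chr3:161413298-161421520 and Adamts1 (ENSRNOG00000001607) at chr11:25342126-25350974.

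RefSeq promoter windows of 300 bases, from 250 before to 50 after the start of a gene, were read in build GRCr8 for 6 of the 9 genes, and Mmp2, Mmp9 and Mmp14 had none in the table. The 3 inhibitors that moved in the Cx are shown whole, 5′ to 3′ on the strand of the gene, because the raised Timp1 and Timp2 and the lowered Timp3 can be set side by side. Timp1 is chrX:3771073-3771372, Timp2 is chr10:104089165-104089464 and Timp3 is chr7:19459509-19459808, each on the minus strand.
Timp1: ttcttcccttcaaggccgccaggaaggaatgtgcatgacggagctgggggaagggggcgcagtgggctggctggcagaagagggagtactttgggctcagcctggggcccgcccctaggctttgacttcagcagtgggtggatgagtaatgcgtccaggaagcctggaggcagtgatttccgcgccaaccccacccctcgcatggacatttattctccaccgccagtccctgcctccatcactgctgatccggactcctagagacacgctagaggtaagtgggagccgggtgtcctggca
Timp2: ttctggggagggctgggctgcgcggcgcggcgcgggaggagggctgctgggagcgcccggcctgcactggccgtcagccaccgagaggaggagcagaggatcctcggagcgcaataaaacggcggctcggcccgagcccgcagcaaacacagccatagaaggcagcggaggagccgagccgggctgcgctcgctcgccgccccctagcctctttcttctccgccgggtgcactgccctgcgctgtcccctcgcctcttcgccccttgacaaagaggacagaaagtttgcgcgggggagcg
Timp3: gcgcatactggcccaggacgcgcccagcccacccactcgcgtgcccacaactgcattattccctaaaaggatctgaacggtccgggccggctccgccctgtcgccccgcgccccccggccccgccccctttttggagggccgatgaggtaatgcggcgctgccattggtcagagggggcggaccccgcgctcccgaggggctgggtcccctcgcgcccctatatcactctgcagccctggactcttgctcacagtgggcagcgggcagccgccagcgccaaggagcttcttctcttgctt
All 3 are rich in G and C, at 61.3% for Timp1, 70.3% for Timp2 and 68.7% for Timp3 against a median of 51.7% over 33469 promoters. They hold 12, 32 and 26 CpG against a median of 7.

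The AP-1 motif TGANTCA, which reads the same on both strands, was searched in the same windows. It was absent from the letters of the windows of Timp1, Timp2, Timp3 and Adamts1, and present with 1 match each in Mmp12 and Mmp7, as in 7.33% of all promoters (2453 of 33469). The stretch of 41 bases around each match is shown because Mmp12 and Mmp7 share the motif's letters at a similar place, 87 and 80 bases before the start, with the match in capitals. The Mmp12 stretch is chr8:12866548-12866588 and the Mmp7 stretch chr8:13132946-13132986 (GRCr8, plus strand).
Mmp12: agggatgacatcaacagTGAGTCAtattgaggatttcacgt
Mmp7: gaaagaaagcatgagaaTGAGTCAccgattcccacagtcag
A match describes these letters only, and binding was not measured. Near forms of the motif were not searched, such as the tgagtaa in the Timp1 window, which the pattern cannot match.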

How the data were processed

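The analysis starts from the deposited gene counts, which the authors made with HISAT2 2.0.5, StringTie 1.3.3b and featureCounts 1.5.0-p3 on Rnor_6.0, and from the gene length in the same table. The deposited FPKM values and the authors' fold change and p columns, which hold expression per length and their own tests between groups, were not used. Library depth was the sum of counts, from 5408126 to 21842843. Genes were filtered with filterByExpr, scaled by TMM and tested with the quasi-likelihood F-test of edgeR 4.0.16 in R 4.3.3 with limma 3.58.1, each comparison on its own libraries and the tissue interaction on 20 libraries, with Benjamini-Hochberg adjustment. The code was tested on simulated data. Alternatives were DESeq2 1.42.0, scaling by total counts or by relative log expression, no filter, each library left out in turn, and a replicate block.

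Log2 CPM adds a prior count of 2. Levels between genes are compared per kilobase of the deposited length. The 9 members and the gene lists were chosen by name with earlier results of these data known. Of 221 listed symbols, 217 were found, 2 of them under an older symbol (Ctgf for Ccn2 and AABR07073181.1 for Hspg2), and Mmp25, Adamts13, Col4a3 and Pecam1 were not. Genes named from a list other than the members are those with the largest called changes, up to a pair in each list. Promoter sequences came from RefSeq on GRCr8, a build other than that of the counts, and no protein sequences were at hand.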

Additional observations from a re-analysis of the deposited data

Results flagged for a closer look

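Groups of 5 libraries in which a member reached 10 counts were checked, 48 in all, which leaves out Mmp7. In each, the most distant value of each member in log2 CPM was compared with its group by Dixon's ratio, and 4 groups held a value that stood apart. Chance alone would give about 1 in 20 groups.

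Mmp9 in OM LS was highest in replicate 2, at 4.53 CPM against 0 to 0.127 CPM in the other libraries (ratio 0.813). Timp1 in OM HS14 was lowest in replicate 10, at 1.61 CPM against 6.99 to 8.75 CPM (ratio 0.865). Timp3 in Cx HS14 was lowest in replicate 10, at 611 CPM against 936 to 1046 CPM (ratio 0.793). Adamts1 in Cx HS21 was lowest in replicate 12, at 64.8 CPM against 87.5 to 96.9 CPM (ratio 0.745).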

How the results depend on the processing

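Of 304 log2 ratios of members under other settings, 284 kept their sign and their call or lack of one, 12 reversed sign, 7 gained a call and 1 lost it. Of 860 with a library left out, 796 kept both, 48 reversed sign (1 of these, Mmp9 in the tissue difference at HS21, also gained a call), 10 others gained a call and 6 lost it. The cause was not tested. The 3 calls in the Cx at HS21 held in all 10 leave-one-out fits: Timp1 0.79 to 1.07, Timp2 0.46 to 0.56 and Timp3 −0.70 to −0.61. With total-count scaling they were 1.09, 0.64 and −0.54. In the OM at HS21, DESeq2 called 1 member instead of 0, and leaving out a library gave 0 to 1. For the tissue difference at HS21, DESeq2 called 1 and leaving out a library gave 0 to 2.

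Signs reversed in values near 0, apart from Mmp9, whose OM values turn on LS replicate 2. In the Cx at HS14, Adamts1 was 0.00 with total-count scaling, and over the leave-one-out fits Mmp2 ran from −0.06 to 0.12, Mmp12 from −0.20 to 0.14, Timp3 from −0.15 to 0.02 and Adamts1 from −0.12 to 0.13. In the OM at HS14, Mmp14 was −0.04 with total-count scaling and ran from −0.16 to 0.13, and Timp1 from −0.02 to 0.35. In the OM at HS21, Timp3 was 0.00 with relative log expression scaling and 0.00 by DESeq2 and ran from −0.13 to 0.09. Adamts1 was there 0.00, 0.03 and 0.00 with relative log expression, total-count scaling and DESeq2 and ran from −0.08 to 0.10, Mmp2 ran from −0.14 to 0.26 and Mmp9 from −0.22 to 3.77. From HS14 to HS21, Mmp14 in the Cx was 0.08 with total-count scaling and ran from −0.14 to 0.06, and Timp2 in the OM ran from −0.19 to 0.03. Between tissues on LS, Timp2 was 0.04 with total-count scaling. For the tissue difference at HS14, Mmp9 was 0.05 with total-count scaling and ran from −0.37 to 3.55, Mmp14 from −0.06 to 0.24 and Timp1 from −0.22 to 0.13. At HS21, Mmp9 ran from −0.57 to 3.38 and Timp2 from −0.19 to 0.10.

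Both tissues were cut from the kidneys of the same rats, so their libraries are not independent, but no label ties equal replicate numbers to 1 rat, and the fits between tissues did not use the numbers. Residual correlations of 15 equal-number pairs ran from −0.116 to 0.558 (median 0.159), 10 of 15 were over 0.1 and 11 of 15 were best with their own number, among them all 5 of HS21 (0.299 to 0.558). With a replicate block, 4 members were called between tissues and 0 for the difference at HS14 and at HS21, and Mmp9 was 1.33 and 0.79 for these differences.

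Over all genes, DESeq2 called more than edgeR in both directions in every comparison but that of Cx HS21 with LS. It called 500 raised and 414 lowered in the Cx at HS14, 90 and 20 in the OM at HS14, and 555 and 166 in the OM at HS21. From HS14 to HS21 it called 20 and 11 in the OM and 1465 and 1831 in the Cx. For the tissue difference it called 8 and 3 at HS14 and 337 and 201 at HS21, and between tissues 3692 and 3253. In the Cx at HS21 it called 3043 raised against 2702 by edgeR, and 2917 lowered, fewer than the 2936 of edgeR. Total-count scaling moved the balance to 4401 raised and 1653 lowered in the Cx at HS21, 2084 and 644 from HS14 to HS21 in the Cx, 5546 and 1842 between tissues and 57 and 54 for the tissue difference at HS21. The median log2 ratios of all genes were then 0.13, 0.13, 0.27 and −0.16, in place of 0.0, 0.01, 0.03 and −0.06 with TMM.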
